A study of Rattus norvegicus with 2 samples.

Results

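Mitochondrial ribosomal protein genes were taken as the genes whose symbol begins with Mrpl or Mrps followed by a number, which found 73 genes on 76 deposited rows, out of 22312 genes in the table. Of these, 44 carry the letter L, for the large subunit, and 29 the letter S, for the small subunit. Their mRNA was measured in rat skin in 1 library per group. The irradiated library came from skin of male Sprague-Dawley rats that had received a single dose of 45 Gy, and the non-irradiated library came from skin outside the treated area. The dose was given at 4 weeks of age by a 6 MeV electron beam at 750 cGy per minute. Both groups share strain, sex, housing and library preparation. How long after irradiation the skin was taken, how many rats gave tissue and whether tissue was pooled are left unstated by the labels. The title of the irradiated library, NC, is not expanded in the labels, so every direction below rests on its source label. With 1 library per group no difference between the groups has a replicate check, and no test was made.

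Mitochondria translate the few proteins that their own genome encodes, all of them parts of the respiratory chain and of the ATP synthase, on ribosomes of their own. The RNA of these ribosomes is mitochondrial, but each of their proteins is encoded in the nucleus, made in the cytosol and imported. Many of the proteins have counterparts in bacterial ribosomes, and the others were added in the course of mitochondrial evolution. The large subunit forms the peptide bond and holds the exit tunnel, and the small subunit binds the mRNA and decodes it.

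On the deposited FPKM scale, the mRNAs of the mitochondrial ribosome stood at nearly the same level in irradiated and non-irradiated skin. Sums were taken over the 72 genes whose mean of both libraries reached 1 FPKM, with the subunit taken from the letter in the symbol. The large subunit had 3375 FPKM in irradiated skin and 3446 FPKM in non-irradiated skin. The small subunit had 1576 FPKM in irradiated skin and 1589 FPKM in non-irradiated skin. FPKM scales fragment counts by transcript length and by library size. With the libraries rescaled by a trimmed mean of the ratios of all genes, the sums were lower in irradiated skin. Irradiated over non-irradiated, they then stood at 0.766 for the large subunit and 0.776 for the small subunit. The 72 genes in these sums took 0.370% of the estimated reads in irradiated skin, with an exact 95% binomial interval of 0.367% to 0.374%. In non-irradiated skin they took 0.370%, with an interval of 0.366% to 0.373%. These shares rest on 41472 reads in irradiated skin and 46776 in non-irradiated skin. All intervals here cover counting error only.

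For each gene the ratio was taken as log2 of irradiated over non-irradiated FPKM after adding 1 FPKM to both, where the mean of both libraries reached 1 FPKM. This filter kept 72 of the 73 genes, and each of the 72 was above 1 FPKM in both libraries. Mrpl36, counterpart of a very small bacterial ribosomal protein, did not pass, at 0.672 FPKM in irradiated skin and 0.573 FPKM in non-irradiated skin, which is 1 read in each. None of the 72 was at least 2-fold higher in irradiated skin, against 9.70% of the 9743 genes that passed the filter. None was at least 2-fold lower, against 1.53% of all genes. At 1.5-fold, 2 of 72 were higher, against 23.8% of all genes, and 0 were lower, against 5.22%. A narrower background is given by the 5406 genes that reached a mean of 5 FPKM, a level nearer to that of most ribosomal genes. Of them 5.94% were 2-fold higher and 1.55% were 2-fold lower, and 15.9% were 1.5-fold higher and 5.72% were 1.5-fold lower.

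The median log2 ratio of the 72 genes was -0.02, and the middle of their distribution ran from -0.16 at the lower quartile to 0.15 at the upper quartile. The median of all genes was 0.21, and that of genes whose mean reached 5 FPKM was 0.11. Of the 72, 33 had a ratio above 0 and 39 below 0, whereas 68.0% of all genes were above 0 and 32.0% below. At 5 FPKM or more, 61.3% were above 0 and 38.7% below. A ratio within 0.25 of 0 was seen for 48 of the 72 genes, or 66.7%, against 38.0% of all genes and 44.9% of genes whose mean reached 5 FPKM. The distribution of ribosomal genes was thus narrower than that of all genes, and it was centred near 0 while that of all genes lay above 0. Set against the all-gene median, 17 of the 72 lay above it and 55 below, and their median was -0.23 on that scale.

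Counting error was taken into account with an exact interval for the ratio of the scaled counts of each gene. It lay above 0 for 15 of the 72 genes, against 44.5% of all genes, and below 0 for 16, against 15.9% of all genes. At 5 FPKM or more these shares were 40.3% above and 22.7% below. For the other 41 ribosomal genes the interval held 0, so a difference was not detectable at this depth. Ratios in FPKM and in scaled counts lay within 0.1 of each other for 69 of the 72 genes.

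**Figure D1:**
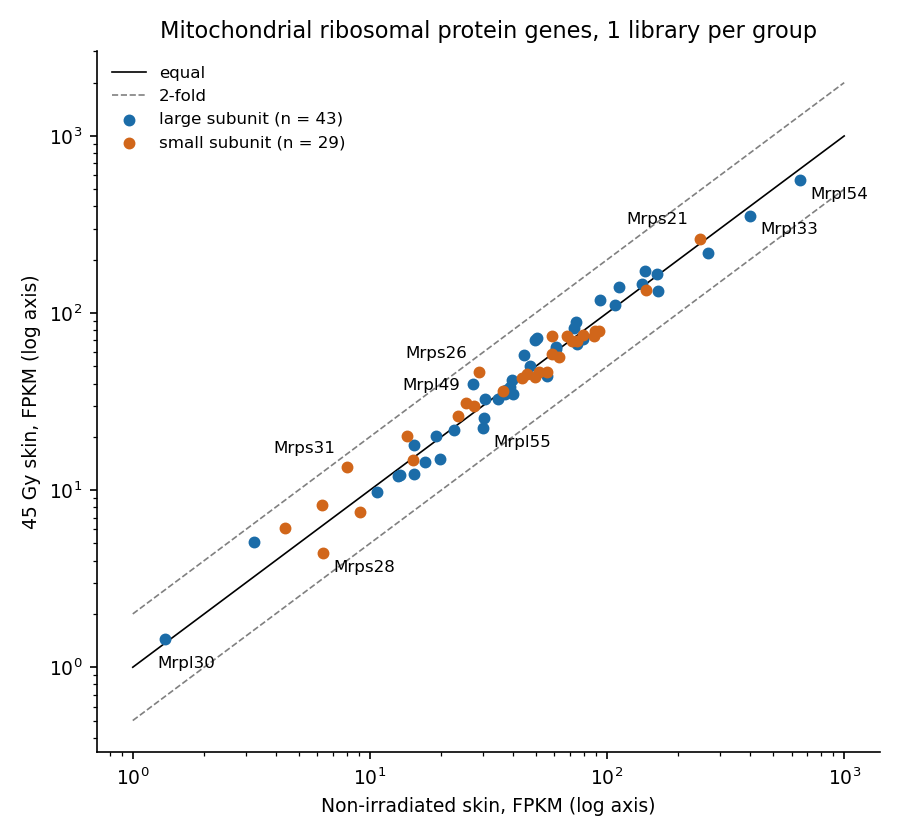
FPKM of each mitochondrial ribosomal protein gene in irradiated and in non-irradiated skin, both on log axes, with 1 point per gene and the subunits in different colours. The points follow the diagonal across the whole range of levels, and the dashed lines mark a 2-fold difference, which none of the 72 genes above the filter reached.

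The genes differed far more from each other than between the libraries. Among the 72, the highest level was 389 times the lowest in irradiated skin and 474 times in non-irradiated skin, and the order of levels was much alike in both libraries, with a Spearman rho of 0.976 across the 72 genes. Since the genes share these libraries and are not independent replicates, this value is only a description. Mrpl54, a protein of the large subunit without a bacterial counterpart, was highest, at 562 FPKM in irradiated skin and 649.7 FPKM in non-irradiated skin. Next came Mrpl33, counterpart of a small bacterial protein, at 355 FPKM in irradiated skin and 399 FPKM in non-irradiated skin. Among the genes of the small subunit, Mrps21 led with 262 FPKM in irradiated skin and 247 FPKM in non-irradiated skin. The lowest of the 72 was Mrpl30, summed over its several rows, at 1.45 FPKM in irradiated skin and 1.37 FPKM in non-irradiated skin. Mrpl51, without a bacterial counterpart, was also low for the large subunit, with 9.81 FPKM in irradiated skin and 10.7 FPKM in non-irradiated skin. FPKM divides by transcript length, and genes of high FPKM had fewer scaled counts per FPKM, with a rho of -0.55 across the 72 genes. Mrps15, whose bacterial counterpart binds ribosomal RNA early in assembly, ranked 16 by FPKM but 2 by scaled counts.

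In the large subunit, ratios ran from -0.40 to 0.54 over 43 genes, with a median of -0.01, 21 genes above 0 and 22 below. Its highest ratio was that of Mrpl49, one of the proteins without a bacterial counterpart, with 40.0 FPKM in irradiated skin and 27.2 FPKM in non-irradiated skin, from 626 and 475 reads. Its log2 ratio was 0.54, and its counting interval of 0.37 to 0.72 lay above 0. Mrpl45, which in human mitochondria ties the ribosome to the inner membrane near the tunnel exit, had 72.1 FPKM in irradiated skin and 50.5 FPKM in non-irradiated skin, a log2 ratio of 0.51 with an interval of 0.38 to 0.63. Both were above the spread of most of the subunit and below 1.5-fold. Mrpl41, a mitochondria-specific protein that in human cells also binds p53, had 70.3 FPKM in irradiated skin and 49.6 FPKM in non-irradiated skin, a ratio of 0.49 with an interval of 0.28 to 0.68.

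Further large-subunit proteins line the path of the new peptide or form the protuberances of the subunit. Mrpl22, whose bacterial counterpart lines the exit tunnel, had 57.6 FPKM in irradiated skin and 44.7 FPKM in non-irradiated skin, a log2 ratio of 0.36. Mrpl23, counterpart of a protein at the tunnel exit, had 173 FPKM in irradiated skin and 144 FPKM in non-irradiated skin, a ratio of 0.26. Both tunnel proteins had intervals above 0, from 0.14 to 0.56 for Mrpl22 and from 0.08 to 0.38 for Mrpl23. Mrpl18 sits in the central protuberance and Mrpl20 has a bacterial counterpart needed early in assembly. Mrpl18 had 118 FPKM in irradiated skin and 93.2 FPKM in non-irradiated skin, a ratio of 0.34. Mrpl20 had 141 FPKM in irradiated skin and 113 FPKM in non-irradiated skin, a ratio of 0.32. Rescaling the libraries by a trimmed mean of the ratios of all genes turned the ratios of Mrpl18, Mrpl20 and Mrpl23 below 0. In the stalk, where elongation factors bind, Mrpl12 had 146 FPKM in irradiated skin and 141 FPKM in non-irradiated skin, a ratio of 0.05. Mrpl10, which anchors Mrpl12, had 11.99 FPKM in irradiated skin and 13.2 FPKM in non-irradiated skin, a ratio of -0.13, and the intervals of both held 0.

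At the other end stood Mrpl55, with 22.5 FPKM in irradiated skin and 29.99 FPKM in non-irradiated skin, from 214 and 320 reads. Its log2 ratio of -0.40 was the lowest of the subunit, with an interval of -0.69 to -0.18. Mrpl38, a mitochondria-specific protein of the central protuberance, had 15.1 FPKM in irradiated skin and 19.8 FPKM in non-irradiated skin, a ratio of -0.37. Mrpl28, which has a bacterial counterpart, had 44.3 FPKM in irradiated skin and 55.8 FPKM in non-irradiated skin, a ratio of -0.33. The intervals of all 3 lay below 0. Mrpl27, whose bacterial counterpart reaches the site of peptide bond formation, had 217 FPKM in irradiated skin and 267 FPKM in non-irradiated skin, a ratio of -0.30. Mrpl42, which is mitochondria-specific, had 133 FPKM in irradiated skin and 163 FPKM in non-irradiated skin, a ratio of -0.29. These are among the most abundant mRNAs of the subunit, and their intervals also lay below 0. Mrpl39, which resembles a tRNA synthetase, had 12.3 FPKM in irradiated skin and 15.3 FPKM in non-irradiated skin, a ratio of -0.30 whose interval reached 0.01 and so held 0. Mrpl50 and Mrpl19 had ratios of -0.24 and -0.22, and of these Mrpl50 had an interval below 0. The most abundant gene, Mrpl54, had a ratio of -0.21 from 3010 reads in irradiated skin and 3932 in non-irradiated skin, with an interval of -0.31 to -0.17, while Mrpl33 had -0.17 and Mrpl53 had 0.04.

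In the small subunit, ratios ran from -0.44 to 0.68 over 29 genes, with a median of -0.03, 12 genes above 0 and 17 below. The 2 genes past 1.5-fold, Mrps31 and Mrps26, are both parts of the small subunit without a bacterial counterpart. Mrps31, listed at chr16:74102246-74133103 on the minus strand in the table's coordinates, whose build is not given in the sources used here, had 13.5 FPKM in irradiated skin and 8.04 FPKM in non-irradiated skin. It had 198 estimated reads in irradiated skin and 132 in non-irradiated skin, a log2 ratio of 0.68 and an interval of 0.41 to 1.06. Mrps26, listed at chr3:129591391-129593055 on the plus strand, had 46.4 FPKM in irradiated skin and 28.9 FPKM in non-irradiated skin. It had 455 reads in irradiated skin and 318 in non-irradiated skin, a log2 ratio of 0.66 and an interval of 0.46 to 0.88. Both genes therefore differed between these libraries by more than counting error, and neither passed 1.5-fold once the libraries were rescaled to put the median of all genes at 0. On that scale 2 genes were 1.5-fold lower, Mrpl55 and Mrps28. With the trimmed mean, 9 were lower and 0 higher, and the median of all genes itself lay at -0.09. The shares of all genes past 1.5-fold were not computed on these 2 scales, so these counts have no background beside them.

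The 250 bases before the start of the 2 genes past 1.5-fold are printed here because no other gene of the set passed that line. With 0.1 FPKM added in place of 1 FPKM, Mrpl1 passed it as well. Sequences are from RefSeq on the GRCr8 build, written in the direction of the gene: Mrps31 at chr16:76324066-76324315, minus strand, and Mrps26 at chr3:138222074-138222323, plus strand. Capitals mark a match to the ETS factor motif CCGGAAG, which begins 94 bases before the start of Mrps31. In Mrps26 the same letters occur only in the 50 bases after the start, which are not printed.
Mrps31: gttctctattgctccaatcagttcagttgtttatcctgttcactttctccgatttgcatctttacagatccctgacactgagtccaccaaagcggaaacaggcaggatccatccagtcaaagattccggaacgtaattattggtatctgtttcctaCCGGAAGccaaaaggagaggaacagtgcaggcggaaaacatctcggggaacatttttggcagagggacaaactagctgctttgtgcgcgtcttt
Mrps26: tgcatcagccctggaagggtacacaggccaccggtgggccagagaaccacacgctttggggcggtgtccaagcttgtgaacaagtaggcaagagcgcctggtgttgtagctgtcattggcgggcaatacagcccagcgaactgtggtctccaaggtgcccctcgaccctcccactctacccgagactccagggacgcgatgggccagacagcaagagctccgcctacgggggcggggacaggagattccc

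The other small-subunit genes with high ratios were of low level or within 1.5-fold. Mrps6, counterpart of a bacterial protein of the platform, had 20.2 FPKM in irradiated skin and 14.4 FPKM in non-irradiated skin, but from only 50 and 41 reads, and its ratio of 0.46 had an interval of -0.19 to 1.07. Mrps2, another bacterial counterpart and the gene of lowest mean FPKM in the subunit, had 6.12 FPKM in irradiated skin and 4.38 FPKM in non-irradiated skin, a ratio of 0.40 with an interval of 0.14 to 0.82. Mrps27, a mitochondria-specific protein with pentatricopeptide repeats, had 8.27 FPKM in irradiated skin and 6.29 FPKM in non-irradiated skin, a ratio of 0.35 whose interval began at -0.01. Mrps34, which in mice is needed for a stable small subunit, had 74.0 FPKM in irradiated skin and 58.3 FPKM in non-irradiated skin, a ratio of 0.34. Mrps22, variants of which cause mitochondrial disease in humans, had 31.0 FPKM in irradiated skin and 25.5 FPKM in non-irradiated skin, a ratio of 0.27. The intervals of Mrps34 and Mrps22 lay above 0, and both ratios turned below 0 with the trimmed mean, as did that of Mrps17, which was 0.14.

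Lower ratios in the small subunit were found in both kinds of protein: counting intervals lay below 0 for 4 of 16 genes with a bacterial counterpart and for 3 of 10 mitochondria-specific genes. The interval lay below 0 for 15.9% of all genes and for 22.7% of those at 5 FPKM or more, so these counts are not far from the background. Mrps28 had the lowest ratio of all 72 genes, -0.44, with 4.42 FPKM in irradiated skin and 6.36 FPKM in non-irradiated skin. With 29 reads in irradiated skin and 47 in non-irradiated skin, its interval of -1.27 to 0.15 held 0. Mrps15 had 74.5 FPKM in irradiated skin and 88.3 FPKM in non-irradiated skin, a ratio of -0.24. It is deeply covered, with 1877 reads in irradiated skin and 2476 in non-irradiated skin, and its interval of -0.34 to -0.16 lay below 0. Mrps14 had 79.1 FPKM in irradiated skin and 92.8 FPKM in non-irradiated skin, a ratio of -0.23. Mrps24, which binds mRNA at the entry channel in its bacterial form, had 79.5 FPKM in irradiated skin and 88.9 FPKM in non-irradiated skin, a ratio of -0.16. Mrps23, Mrps25 and Mrps18b are the mitochondria-specific genes with an interval below 0. Mrps23 had 56.4 FPKM in irradiated skin and 62.7 FPKM in non-irradiated skin, a ratio of -0.15 with an interval of -0.30 to -0.02. Mrps25 had 43.3 FPKM in irradiated skin and 49.9 FPKM in non-irradiated skin, a ratio of -0.20. The intervals of Mrps14, Mrps24 and Mrps25 lay below 0, as did that of Mrps9, with a ratio of -0.15. Mrps10 had a ratio of -0.24 from 27 reads in irradiated skin and 37 in non-irradiated skin, and its interval held 0. Mrps12, the protein of the decoding centre, had 43.0 FPKM in irradiated skin and 43.9 FPKM in non-irradiated skin, a ratio of -0.03.

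**Figure D2:**
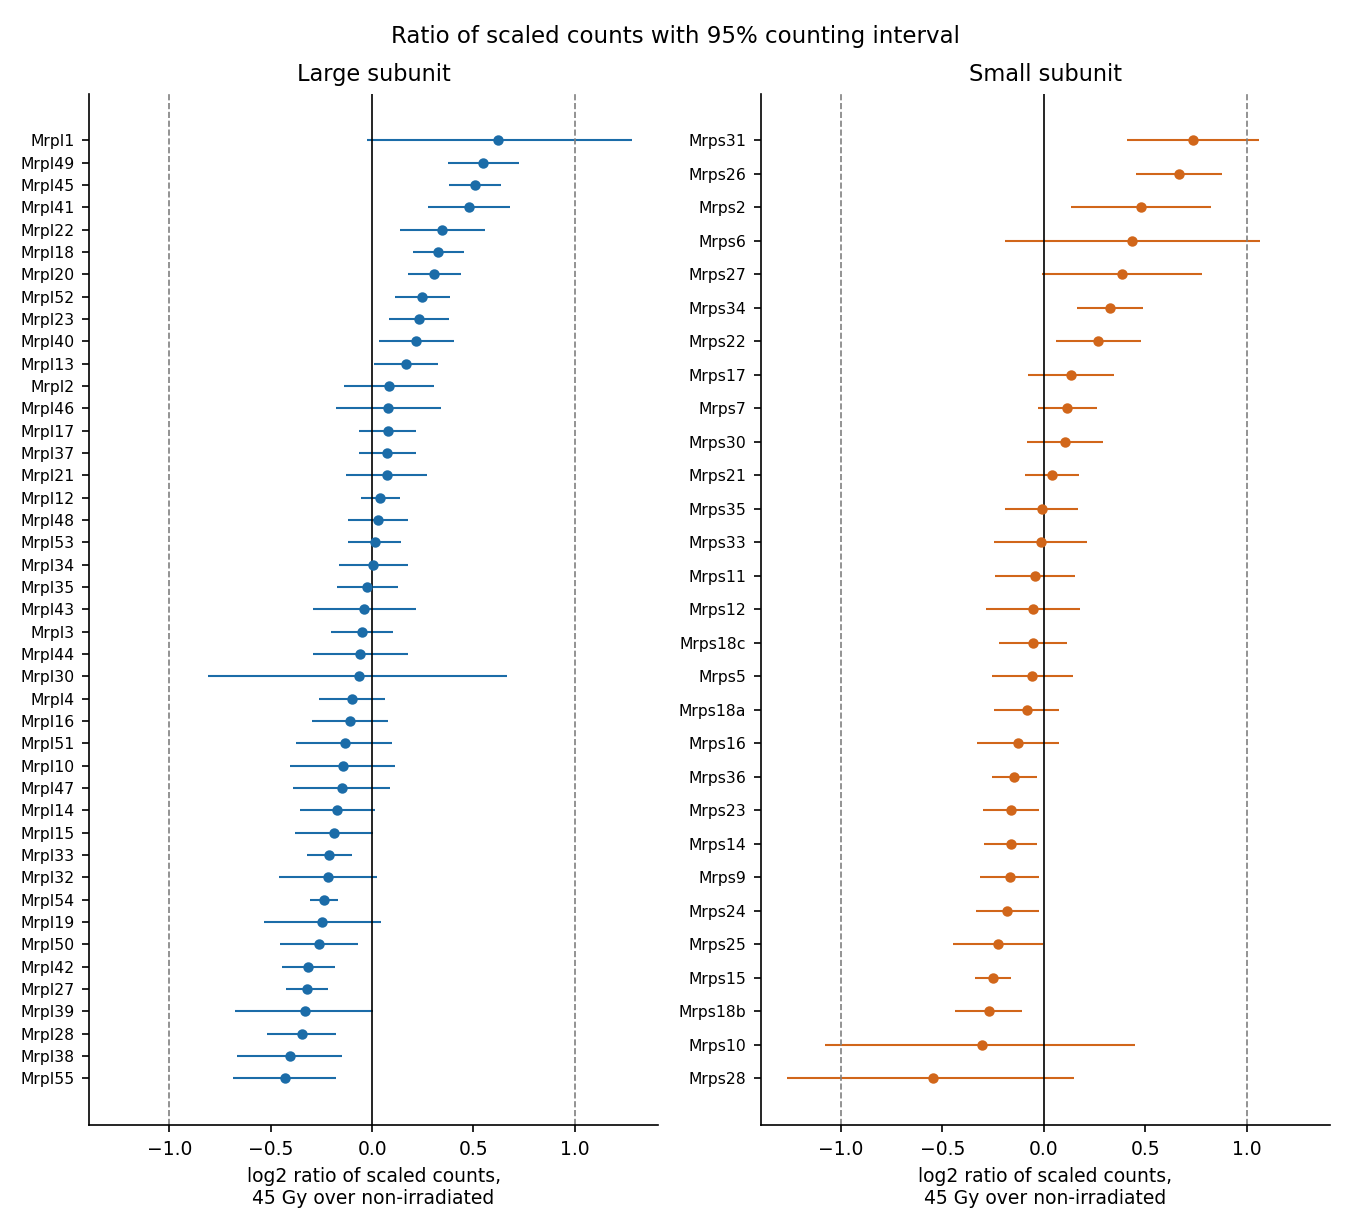
Log2 ratio of irradiated over non-irradiated scaled counts for each of the 72 genes above the filter, ordered within the large and the small subunit. Bars give the exact 95% counting interval of that ratio, and dashed lines mark a 2-fold difference. Most intervals cross or lie close to 0. The highest ratios on this measure were 0.73 for Mrps31, 0.67 for Mrps26 and 0.62 for Mrpl1.

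Mrps18a, Mrps18b and Mrps18c are paralogs related to a single bacterial protein. Only Mrps18c is placed where that protein sits, so Mrps18b was classed by its place, as mitochondria-specific. Mrps18a had 75.2 FPKM in irradiated skin and 78.8 FPKM in non-irradiated skin, a ratio of -0.07. Mrps18b had 46.6 FPKM in irradiated skin and 55.8 FPKM in non-irradiated skin, a ratio of -0.25. Mrps18c had 69.8 FPKM in irradiated skin and 71.4 FPKM in non-irradiated skin, a ratio of -0.03. Of the 3, Mrps18b had an interval below 0, from -0.44 to -0.11, and those of the other two held 0. Mrps18a and Mrps30 are placed in the large subunit by structures of mammalian mitochondrial ribosomes, and Mrps36 has since been assigned to the oxoglutarate dehydrogenase complex. Mrps36 had 134 FPKM in irradiated skin and 147 FPKM in non-irradiated skin, a ratio of -0.12.

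The large and the small subunit did not separate. The median of the large subunit was 0.01 above that of the small subunit, and it was between 0.01 and 0.04 above it under every alternative tried. Large over small, the summed FPKM gave 2.14 in irradiated skin and 2.17 in non-irradiated skin. All sums, counts and shares of the subunits follow the symbols, so they count Mrps18a, Mrps30 and Mrps36 as small. Placing Mrps18a and Mrps30 in the large subunit and leaving out Mrps36 would raise the large over small ratio in both libraries. That ratio was not computed in this way. With the genes so placed, the large median was 0.01 above the small median. Counting intervals lay above 0 for 10 and below 0 for 8 of 43 large-subunit genes, and above 0 for 5 and below 0 for 8 of 29 small-subunit genes. Of all genes, 44.5% had an interval above 0 and 15.9% below. At 5 FPKM or more these shares were 40.3% and 22.7%. Summed over scaled counts, the log2 ratio was -0.01 for the large subunit, with a counting interval of -0.04 to 0.01, and -0.05 for the small subunit, with an interval of -0.08 to -0.01. In shares of reads the large subunit took 0.238% in irradiated skin and 0.236% in non-irradiated skin, and the small subunit 0.132% in irradiated skin and 0.134% in non-irradiated skin.

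Split by evolutionary origin, the medians were -0.01 for the 25 large-subunit genes with a bacterial counterpart and 0.04 for the 17 without. In the small subunit they were -0.04 for the 16 genes with a bacterial counterpart, of which 5 were above 0, and 0.14 for the 10 mitochondria-specific genes, of which 6 were above 0. Both genes past 1.5-fold fall in this last class, which also holds 4 genes with ratios below 0, among them Mrps25, Mrps23 and Mrps18b. Mrps26 and Mrps31 had the highest ratios in a class of few genes, and the difference between the classes has no test. Counting Mrps18b with its bacterial relative instead, an alternative chosen after seeing the data, gave medians of -0.05 over 17 genes and 0.27 over 9. Mrpl55, whose origin was not settled here, and Mrps18a, Mrps30 and Mrps36, whose place goes against their symbols, were in none of these 4 classes.

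**Figure D3:**
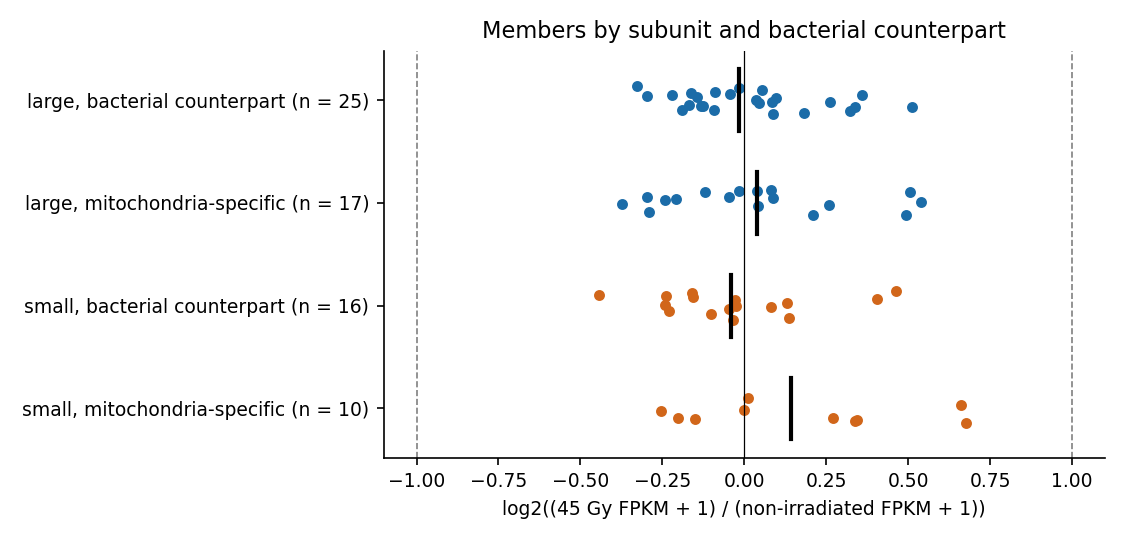
Log2 ratio of irradiated over non-irradiated FPKM by class of mitochondrial ribosomal protein, with 1 point per gene and a line at the median of each class. The classes overlap, with medians of -0.01 and 0.04 in the large subunit and -0.04 and 0.14 in the small subunit.

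Some values depend on how reads were shared between similar genes. Mrpl1, the protein of the mobile stalk near the tRNA exit, had 5.07 FPKM in irradiated skin and 3.26 FPKM in non-irradiated skin, from 50 and 36 reads, a ratio of 0.51. A separate row, LOC100359687, is described as L1-like and had 8.003 FPKM in irradiated skin and 9.86 FPKM in non-irradiated skin. Added together they gave 13.1 FPKM in both libraries and a log2 ratio of -0.00, so the value of Mrpl1 alone is uncertain. A row similar to Mrpl41, RGD1560917, held 3 reads in irradiated skin and 2 in non-irradiated skin, and one similar to Mrps11, LOC690271, held 0 in both. Another 10 genes, among them Mrpl13, Mrpl14, Mrpl27 and Mrps2, share their listed locus with other rows, and their reads may have been split.

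Proteins of the same ribosome under symbols outside the rule were all within 1.5-fold. The lower-case symbols mrpl11 and mrpl24 had ratios of 0.10 and 0.03, and mrpl9 had 37.2 FPKM in irradiated skin and 46.9 FPKM in non-irradiated skin, a ratio of -0.33. Gadd45gip1 of the large subunit had 282 FPKM in irradiated skin and 238 FPKM in non-irradiated skin, a ratio of 0.24. Ict1, a large-subunit protein that can release stalled peptides, had 76.6 FPKM in irradiated skin and 75.8 FPKM in non-irradiated skin. In the small subunit Chchd1 had 295 FPKM in irradiated skin and 294 FPKM in non-irradiated skin, and Dap3, which binds GTP, had 14.5 FPKM in irradiated skin and 12.4 FPKM in non-irradiated skin, a ratio of 0.22. Leaving out the lower-case symbols, 7 such proteins were measured, and all 7 ratios were above 0, though only 3 of the 7 were above the median of all genes.

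The promoters of these genes, which the symbol rule did not use, differed in composition from the full set of rat promoters. Of the 73 genes, 59 were matched to a promoter in the RefSeq table used here, as 250 bases before to 50 bases after the start. These windows had a median of 18 CpG dinucleotides and 55.7% GC, against 7 and 52.3% over all 27457 rat promoters. The full set was not limited to genes expressed in these libraries, and expressed genes alone were not compared. The palindrome of an NRF1 site, spelled out in capitals in the Mrpl17 promoter printed further on, was in 4 of 59 windows, or 6.78%, against 0.932% of all promoters, on either strand. NRF1 is a known activator of nuclear genes for mitochondrial proteins. Those of an ETS factor, CCGGAAG, were in 19, or 32.2%, against 9.22%. Those of YY1, AAGATGGC, were in 15, or 25.4%, against 3.44%. An E-box, CACGTG, was in 6 windows, or 10.2%, against 6.65%, and TATAAA in 7, or 11.9%, against 14.3%. At least 1 of the NRF1, ETS and YY1 runs was in 30 of 59 windows, or 50.8%, against 12.7% of all promoters. A match is a run of letters and does not show that a factor binds there. The 29 measured genes with such a run had a median log2 ratio of 0.04, and the 29 without had -0.10.

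The 4 genes with the NRF1 run were Mrpl17, Mrpl32, Mrpl44 and Mrps18b. The 250 bases before the start are given for Mrpl17 (chr1:169575700-169575949, minus strand) and Mrps18b (chr20:2842756-2843005, plus strand), as a gene of each subunit, again from RefSeq on GRCr8. Capitals mark the NRF1 run, which begins 55 bases before the start of Mrpl17 and 20 bases before that of Mrps18b, and in Mrps18b also an E-box at 83 bases.
Mrpl17: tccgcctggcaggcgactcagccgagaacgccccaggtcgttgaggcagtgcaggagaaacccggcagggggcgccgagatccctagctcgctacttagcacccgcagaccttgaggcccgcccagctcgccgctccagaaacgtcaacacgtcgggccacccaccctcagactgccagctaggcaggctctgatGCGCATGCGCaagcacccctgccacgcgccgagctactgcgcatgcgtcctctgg
Mrps18b: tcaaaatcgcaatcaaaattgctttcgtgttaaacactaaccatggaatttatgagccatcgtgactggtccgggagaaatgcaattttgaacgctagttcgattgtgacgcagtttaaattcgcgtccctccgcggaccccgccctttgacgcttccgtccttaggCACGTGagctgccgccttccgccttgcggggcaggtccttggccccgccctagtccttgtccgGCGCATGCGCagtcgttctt

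Mrpl17 had 64.7 FPKM in irradiated skin and 60.9 FPKM in non-irradiated skin, and of the 4 genes with the run it alone had a ratio above 0, at 0.09.

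Many of the genes start close to another gene on the opposite strand. Of the 63 genes on a locus of their own, 16 had such a neighbour within 1000 bases of the start, or 25.4%. Over all genes on a locus of their own it was 984 of 19677, or 5.001%, with no filter on level. Mrps11 and Mrpl46, a gene of each subunit, lie head to head with 233 bases between their starts, at chr1:141453418-141462799 on the plus strand and chr1:141445110-141453185 on the minus strand in the table's coordinates. Mrps11 had 45.4 FPKM in irradiated skin and 46.2 FPKM in non-irradiated skin, and Mrpl46 had 20.3 FPKM in irradiated skin and 19.1 FPKM in non-irradiated skin. Neither differed beyond counting error. The 250 bases before the start of Mrpl46 (chr1:142117031-142117280, minus strand, RefSeq on GRCr8) are printed because they span the interval to Mrps11, and capitals mark TATAAA on the opposite strand, 157 bases before the start.
Mrpl46: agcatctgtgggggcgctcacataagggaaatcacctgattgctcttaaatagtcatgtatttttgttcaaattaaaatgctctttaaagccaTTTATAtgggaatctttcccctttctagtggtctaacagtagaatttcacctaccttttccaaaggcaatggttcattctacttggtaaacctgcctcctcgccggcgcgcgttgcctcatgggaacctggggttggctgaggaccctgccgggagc

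Other pairs had unequal ratios. Mrpl49 starts 185 bases from Fau, which encodes a ribosomal protein of the cytosol and had 2152 FPKM in irradiated skin and 1719 FPKM in non-irradiated skin, a ratio of 0.32 beside 0.54 for Mrpl49. Mrps34 starts 64 bases from Eme2, a subunit of a DNA repair nuclease, which had 10.5 FPKM in irradiated skin and 4.72 FPKM in non-irradiated skin, a ratio of 1.01 beside 0.34 for Mrps34. Eme2 was the only one of 13 measured neighbours past 2-fold, against 9.70% of all genes 2-fold higher and 1.53% lower. The 13 include Mrps11 and Mrpl46, each as the neighbour of the other.

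Genes that build and use the mitochondrial ribosome were listed for comparison. With 1 FPKM added, 9.70% of all genes were 2-fold higher and 1.53% lower. At 1.5-fold, 23.8% of all genes were higher and 5.22% lower. Of 21 assembly factors measured, none was past 2-fold and 3 were 1.5-fold higher. They were Mrm1, which methylates ribosomal RNA, with 2.07 FPKM in irradiated skin and 0.539 FPKM in non-irradiated skin and a ratio of 1.00, Dhx30, an RNA helicase, with 0.92, and Mpv17l2, with 0.70. The added 1 FPKM holds Mrm1 under the 2-fold line, since it had 69 reads in irradiated skin and 20 in non-irradiated skin. With 0.1 FPKM added instead, an alternative chosen after seeing the data, Mrm1 and Dhx30 were 2-fold higher. The list of assembly factors had a median of 0.10, with either value added. Of 16 translation factors, none was past 2-fold, 1 was 1.5-fold higher and 2 were lower, and the median was -0.02. With 0.1 FPKM added, 1 of the 16, Taco1, was 2-fold lower. Tufm, the elongation factor that delivers tRNA, had 63.8 FPKM in irradiated skin and 56.8 FPKM in non-irradiated skin. Tsfm, which reloads Tufm, had 8.13 FPKM in irradiated skin and 14.9 FPKM in non-irradiated skin, a ratio of -0.80. Mitochondrial tRNA synthetases had a median of 0.17 over 15 genes, with 1 gene 1.5-fold higher, and genes of mitochondrial transcription and RNA had 0.18 over 20 genes, with 3 higher. Among 9 regulators of mitochondrial biogenesis the median was 0.55, and 2 were 2-fold higher, Myc and Ppargc1b. Myc had 8.58 FPKM in irradiated skin and 2.77 FPKM in non-irradiated skin. Ppargc1b had 2.04 FPKM in irradiated skin and 0.486 FPKM in non-irradiated skin. Esrra, the regulator of highest level, was the only one below 0. It had 18.4 FPKM in irradiated skin and 22.8 FPKM in non-irradiated skin, a ratio of -0.30. With 0.1 FPKM added, 4 of these 9 were 2-fold higher, as were Vars2 among the synthetases and Polg2 among the genes of transcription and RNA. The shares of all genes past 2-fold were not computed with 0.1 FPKM added. The counts of these lists at 0.1 FPKM therefore have no background to be read against.

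The mRNAs that the mitochondrial ribosome translates, and those of the nuclear partners of their products, were also near 0. The 11 mitochondrially encoded mRNAs measured had a median ratio of 0.04 and the 31 nuclear genes of the respiratory chain 0.06, and all of both lists were within 1.5-fold. The ribosomal proteins of the cytosol gave another picture, with a median of 0.45 over 74 genes and 71 ratios above 0, against 33 of 72 for the mitochondrial ribosome. Above the median of all genes lay 68 of the 74. Of the 74, 2 were 2-fold higher and 1 lower, against 9.70% and 1.53% of all genes. Rpl3 had 388 FPKM in irradiated skin and 166 FPKM in non-irradiated skin, a ratio of 1.22. Rpl35a had 25.6 FPKM in irradiated skin and 8.41 FPKM in non-irradiated skin, and Rpl7a had 52.1 FPKM in irradiated skin and 151 FPKM in non-irradiated skin, a ratio of -1.51. Since such genes have many processed copies in the genome, their single values are uncertain. With the median of all genes put at 0, the mitochondrial ribosome stood at -0.23 and the cytosolic list at 0.24. On that scale the mitochondrially encoded mRNAs stood at -0.17 and the nuclear genes of the respiratory chain at -0.15.

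**Figure D4:**
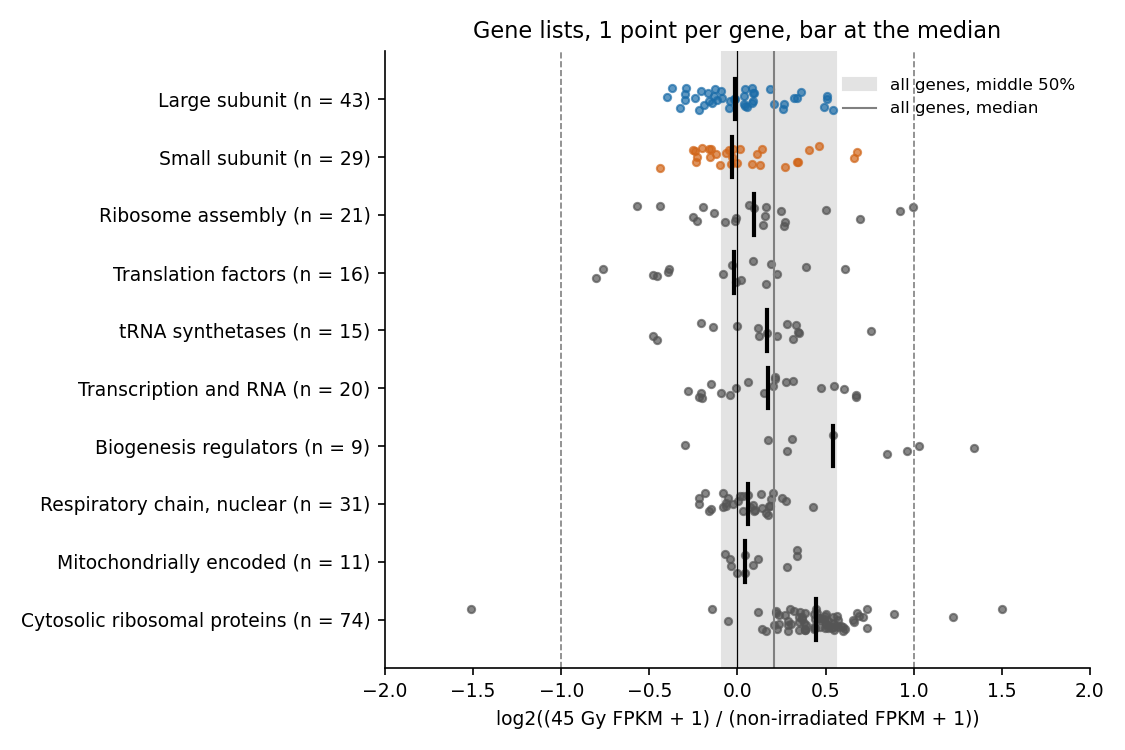
Log2 ratio of irradiated over non-irradiated FPKM for the subunits of the mitochondrial ribosome and for the comparison lists, with 1 point per gene, a line at each list's median and a line at the median of all genes. The mitochondrial ribosome and the respiratory chain lie near 0, and the cytosolic ribosomal proteins lie mostly above it.

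The libraries also differed in the genes of other cell types, whose part in the values above was not tested. Basal keratinocyte genes summed to 1171 FPKM in irradiated skin and 67.4 FPKM in non-irradiated skin, with 6 of 7 measured genes 2-fold higher, and 7 of 7 sebaceous gland genes and 7 of 8 cell division genes were 2-fold higher. Of all genes, 9.70% were 2-fold higher and 1.53% lower. Fibroblast genes had a median of -0.57, with 1 of 8 2-fold lower. Skeletal muscle genes summed to 250986 FPKM in irradiated skin and 272400 FPKM in non-irradiated skin. The totals of all genes were near 1017840 FPKM in irradiated skin and 1002190 FPKM in non-irradiated skin. Single muscle genes went both ways: the median ratio of 8 was -0.25, with 6 below 0 and 3 at least 1.5-fold lower. The 3 were Ckm at -0.84, Atp2a1 at -0.74 and Myh4 at -0.66, while Myh1 was 2-fold higher at 1.29. Muscle is rich in mitochondria, and by these sums both libraries hold much RNA of skeletal muscle genes. Whether that RNA came from muscle within the skin or from tissue taken with it is not stated in the labels. In such bulk samples fewer cells of a type and less RNA per cell cannot be told apart. Depth was similar, at 11197474 estimated reads in irradiated skin and 12649571 in non-irradiated skin.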

How the data were processed

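Per the labels' protocols, ribosomal RNA was removed from total RNA and stranded libraries were sequenced. HISAT2 2.0.4, cutadapt 1.9.3, Cuffdiff and Cufflinks are listed in the submitters' processing notes, and the genome build is not given in the sources used here. The deposited table holds FPKM values made by the authors, per the file headers. Its count columns are deposited as a scaled signal and not as raw counts: the values are multiples of 1.05 for irradiated and of 0.951 for non-irradiated skin, and dividing by these steps gave the estimated reads, since 97.7% and 98.0% of values above 0 came out whole, with a tolerance of 0.01 of a read plus 1e-05 per read of the value. Rows that share a symbol were summed. Whether counting used the strand, and how reads of similar or overlapping genes were shared, is not stated. Intervals are exact Clopper-Pearson intervals at 95%; reads without molecular identifiers are not independent molecules, so they cover counting error only, and they do not bound the FPKM ratio. No count model and no p-value were used. The 2-fold calls and the counting intervals were tried on simulated Poisson counts with larger known changes. The 1.5-fold calls, the rescalings and the estimated read steps were not tried in this way.

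The ribosomal genes and all lists were chosen with earlier results of these data known. Genes named were drawn from the 8 highest and 8 lowest ratios of each subunit, the 5 highest and 3 lowest mean levels, paralogs, genes on several rows or under 1 FPKM, and in the comparison lists those past 2-fold and the 2 of highest level; other names were chosen for their role or after their values were seen. Of 260 listed symbols, 236 matched the table. Of the 13 lists of cell type markers, the medians not given in the text were 2.77 for basal keratinocytes, 2.69 for sebaceous gland, 1.18 for cell division, 3.29 for differentiating keratinocytes, 1.75 for hair follicle, -0.41 for endothelium, 0.12 for adipocytes, -0.00 for macrophages, -2.29 for mast cells, 0.65 for Schwann cells and -0.51 for blood. Alternatives changed the pseudocount, the filter on low levels, the scaling, the unit and the list of genes. Python 3.11.15, pandas 2.3.3, NumPy 2.4.6, SciPy 1.17.1 and matplotlib 3.10.9 were used.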

Additional observations from a re-analysis of the deposited data

How the results depend on the processing

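No member was past 2-fold under any alternative run, and the large minus small median stayed between 0.01 and 0.04. Counts at 1.5-fold and medians moved with the scaling. The number 1.5-fold higher was 3 with a pseudocount of 0.1 FPKM, 1 with a pseudocount of 5 FPKM, and 0 with the median of all genes at 0, with the trimmed mean and without the 100 highest genes. The number 1.5-fold lower was 2 with the median of all genes at 0 and 9 with the trimmed mean. Shares of all genes at 1.5-fold were not computed under these alternatives. A trait of the ribosomal genes and a shift of all genes are therefore not told apart by these counts. With the median of all genes at 0, the medians were -0.23 for all members, -0.22 for the large subunit and -0.24 for the small subunit. With the trimmed mean they were -0.37, -0.36 and -0.38, and the summed FPKM ratios were 0.766 for the large and 0.776 for the small subunit. These scalings moved the median of all genes by -0.21 and -0.29, and the sign of 4 and of 9 of the 41 named genes with them. Leaving out the 100 highest genes moved it by -0.11 and changed the sign of 3. Lower-case symbols, loci that hold no other row and the sum with similar rows were chosen after seeing the data. With these, no summary value moved past its limit. For medians the limit was the median half-width of single-gene counting intervals, 0.19 over all members. That limit is wide beside the medians, so staying within it says little. Mrpl1 alone went from 0.51 to -0.00 with its similar row added, within its own wide interval. No paired analysis was possible because each group has 1 library. Depth limits Mrpl1, Mrpl30, Mrpl36, Mrps6, Mrps10 and Mrps28, with at most 50 reads in a library.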
